A study of Mus musculus with 8 samples.

Results

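The 28 genes described here make cholesterol from acetyl-CoA, move sterol through and out of the cell, or control the SREBP transcription factors that set the pace of both. They were chosen by symbol, through their Ensembl IDs, from 21517 genes listed for mouse morulae or blastocysts in a study of the chromatin remodeler Smarca5 (Snf2h). All 28 were listed at both stages and all 28 reached the minimum mean of 10 that a gene needed to be tested. The lowest mean over a stage's 4 libraries was 78.8 for Tm7sf2 in morulae and 122 for Sc5d in blastocysts. Messenger RNA was sequenced from 4 groups of 2 libraries, namely Snf2h KD morulae, NC morulae, Snf2h KD blastocysts and NC blastocysts, and each library was a pool of 20 embryos. NC is the control group. The series names embryonic days 3.75 and 4.25 without tying either to a stage. The sources used here give neither the method of knockdown, nor the treatment of the control embryos, nor the strain. No label ties the 2 libraries of a group to different litters or collection days. The error behind each p-value therefore comes from the scatter between the 2 libraries of a group. The limma test moderates it with the scatter of all genes tested. Part of the scatter between libraries may be technical.

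Cells build cholesterol along 1 chain of enzymes. Acetyl-CoA is condensed to mevalonate, mevalonate is turned into isoprenoid units and squalene, squalene is closed into lanosterol, and lanosterol is trimmed to cholesterol. When sterol in the endoplasmic reticulum is low, the escort protein SCAP carries the membrane-bound SREBP precursors to the Golgi, where they are cut and freed to enter the nucleus. There they switch on the genes of the whole chain together, and when sterol is plentiful the INSIG proteins hold SCAP back. NPC1 and NPC2 release the cholesterol that cells take up, and ABCA1, a target of the sterol-sensing LXR receptors rather than of SREBP, exports it. Early embryos need sterol for new membranes and for the modification of hedgehog ligands.

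Values are the normalized abundance per gene that the authors deposited, in 1 table per stage. The tables were scaled apart, so levels are not compared between stages. Levels of different genes are not compared because no correction for gene length was made here. The estimated depth was 16177532 to 18569125 reads in morula libraries and 13958541 to 23304895 in blastocyst libraries. Smarca5 itself stood at 501 and 470.4 in KD morulae, against 9678 and 9760.5 in NC morulae. In blastocysts it stood at 906 and 855 in KD blastocysts, against 6999.6 and 8283 in NC blastocysts, so the knockdown labels held in every library. The trophectoderm markers summed to 29120 and 26559 in KD morulae, against 34690 and 29652 in NC morulae, and to 100260 and 114010 in KD blastocysts, against 90267 and 89661 in NC blastocysts. All 3 markers of the inner cell mass and all 4 of the primitive endoderm were listed at both stages. Of 10 cumulus and granulosa markers, Fshr, Cyp19a1, Has2, Ptx3 and Tnfaip6 were listed at neither stage, and the other 5 summed to 243 to 503 in KD libraries and 286 to 509 in NC libraries. Whole embryos were pooled, so fewer cells of a type and less RNA per cell cannot be told apart.

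Promoter sequence was available from RefSeq (build GRCm38.p6) for 23 of the 28 genes, with 31 windows of 250 bases before an annotated start. Each window was searched on both strands for 2 short motifs. The first is the sterol regulatory element bound by SREBP, with the letters TCACNCCAC, and the other is the CCAAT box, with the letters CCAAT, where NF-Y binds beside SREBP at many sterol genes. The CCAAT box was found in 20 of the 23 genes (87%), against 10133 of all 27025 genes with a window (37.5%). Counted by window, 21 of 31 held it (67.7%), against 33.8% of all windows. Neither background was limited to the genes tested here, and the share among those genes was not counted. The sterol element letters were found in 1 of the 23, Hmgcs1, against 1.22% of all genes, and no sterol element overlapped a CCAAT box. A match is a description of letters and not a bound site, and the missing letters say nothing about SREBP at the other genes. The 6 windows below are shown because the results turn on these genes. Hmgcs1 carries the sterol element, Mvk, Cyp51 and Srebf2 differed most between morula libraries of the same arm, and Lss and Sc5d were the 2 members with an unadjusted p under 0.05 for KD against NC in morulae. Each is written 5′ to 3′ on the gene's own strand and ends at the base before the start. Capitals mark CCAAT, its reverse complement ATTGG and, in Hmgcs1, TCACCCCAC.
Hmgcs1 (chr13:119690101-119690350, plus strand): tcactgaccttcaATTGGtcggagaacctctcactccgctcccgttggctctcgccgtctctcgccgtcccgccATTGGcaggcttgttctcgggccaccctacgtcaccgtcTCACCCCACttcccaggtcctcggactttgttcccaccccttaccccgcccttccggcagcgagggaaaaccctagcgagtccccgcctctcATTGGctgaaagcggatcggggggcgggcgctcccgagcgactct
Mvk (chr5:114444019-114444268, plus strand): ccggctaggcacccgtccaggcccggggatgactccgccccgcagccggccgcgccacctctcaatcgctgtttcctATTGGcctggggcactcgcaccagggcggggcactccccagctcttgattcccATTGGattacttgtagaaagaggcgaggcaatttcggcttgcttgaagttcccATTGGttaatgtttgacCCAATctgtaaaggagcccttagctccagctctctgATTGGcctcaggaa
Cyp51 (chr5:4104698-4104947, minus strand): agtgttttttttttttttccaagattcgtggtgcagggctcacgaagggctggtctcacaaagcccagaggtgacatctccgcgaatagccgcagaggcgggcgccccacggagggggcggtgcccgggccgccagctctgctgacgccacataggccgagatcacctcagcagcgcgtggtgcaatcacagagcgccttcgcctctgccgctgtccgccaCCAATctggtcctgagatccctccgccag
Srebf2 (chr15:82147019-82147268, plus strand): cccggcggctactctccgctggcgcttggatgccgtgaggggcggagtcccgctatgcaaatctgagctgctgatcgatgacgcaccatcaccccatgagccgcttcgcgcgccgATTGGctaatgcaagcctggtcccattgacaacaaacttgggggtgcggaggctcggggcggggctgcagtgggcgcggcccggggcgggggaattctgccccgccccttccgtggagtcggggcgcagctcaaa
Lss (chr10:76531355-76531604, plus strand): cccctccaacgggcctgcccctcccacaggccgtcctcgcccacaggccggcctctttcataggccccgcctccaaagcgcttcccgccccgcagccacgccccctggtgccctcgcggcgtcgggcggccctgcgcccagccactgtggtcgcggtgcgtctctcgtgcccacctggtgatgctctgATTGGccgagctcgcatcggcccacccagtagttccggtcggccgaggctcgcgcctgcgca
Sc5d (chr9:42264301-42264550, minus strand): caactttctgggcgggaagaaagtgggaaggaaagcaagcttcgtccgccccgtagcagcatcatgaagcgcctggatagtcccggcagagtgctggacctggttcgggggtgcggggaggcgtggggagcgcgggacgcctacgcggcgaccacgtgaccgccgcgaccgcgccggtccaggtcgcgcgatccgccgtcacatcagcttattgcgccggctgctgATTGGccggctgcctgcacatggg
Mvk held 5 CCAAT boxes in this window, and Cyp51, Srebf2, Lss and Sc5d held 1 each. The sterol element of Hmgcs1 began 137 bases before the start, between its CCAAT boxes. Of the sterol-step enzymes with a window, 9 of 9 had a CCAAT box, whereas Acat2, Scap and Abca1 had none.

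**Figure D1:**
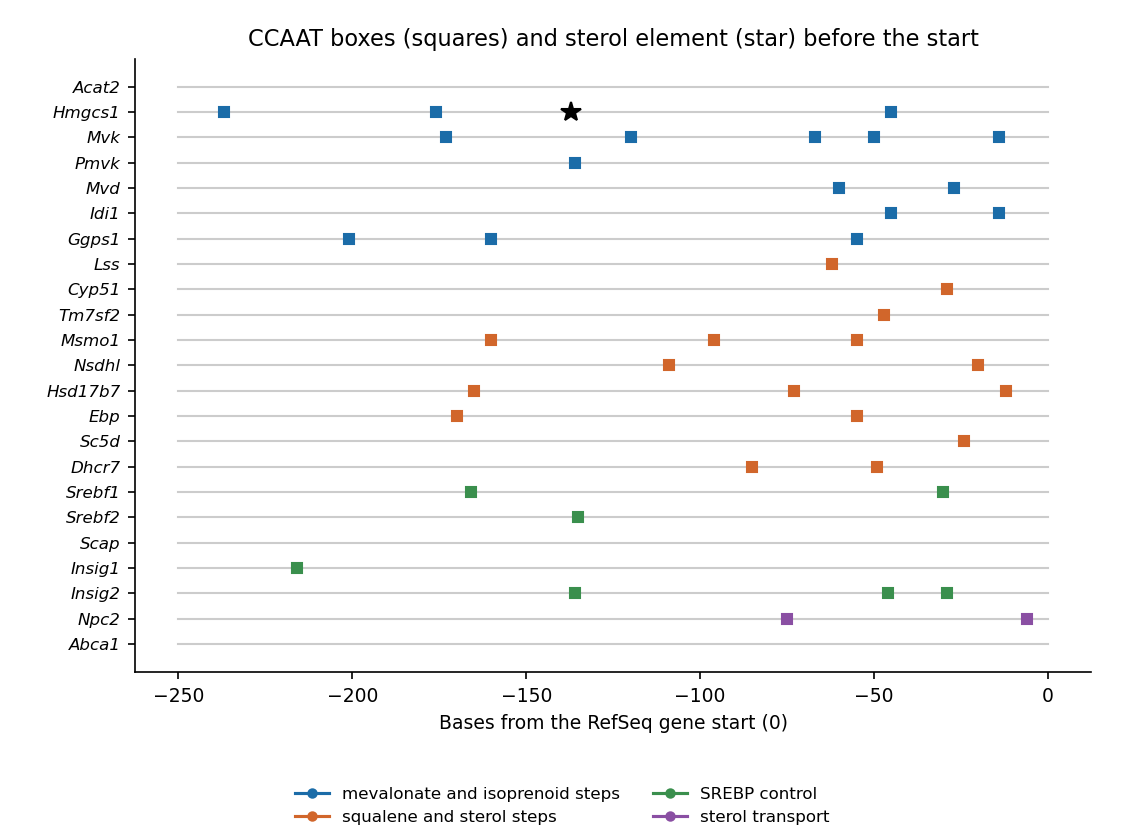
Position of each motif match in the 250 bases before the RefSeq start, in bases on the x axis, for the 23 genes with a window (y axis). Squares are CCAAT boxes coloured by the gene's role and the star is the sterol element, seen in Hmgcs1 only; for genes with several starts all windows are drawn on 1 line.

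The widest differences among these genes lay between the 2 libraries of the same arm in morulae, not between KD and NC. This contrast was chosen after the values were seen. Srebf2, which encodes the SREBP that drives sterol synthesis, had a normalized abundance of 4070.1 and 654 in KD morulae, against 3786 and 303 in NC morulae. With 1 added to each value, as in every fold between libraries here, the first KD library was 6.22-fold above the second, and the first NC library 12.5-fold above the second. Cyp51, which removes the methyl group at the start of lanosterol trimming, stood at 811 and 147 in KD morulae, against 607 and 137 in NC morulae. Mvk, mevalonate kinase, stood at 624 and 120.3 in KD morulae, against 424 and 124 in NC morulae. For these genes the library numbered 1 was far above the library numbered 2 in both arms, and the arms overlapped.

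Over the whole set, 9 of 28 genes were more than 2-fold higher in library 1 than in library 2 in both the KD and the NC arm. They were Mvk, Pmvk, Mvd, Idi1, Sqle, Cyp51, Nsdhl, Srebf2 and Insig1. Among all 13404 genes tested in morulae, 1.40% did the same. With no minimum fold, 22 of 28 were higher in library 1 in both arms, against 31.4% of all genes tested. The median difference, library 1 minus library 2, was 0.96 in KD morulae and 0.69 in NC morulae on the log2 scale, and -0.01 and 0.00 over all genes tested. In the opposite direction 1 gene, Abca1, was more than 2-fold higher in library 2 in both arms (1.94% of all genes). It stood at 272 and 962 in KD morulae, against 366 and 896 in NC morulae. Abca1, the exporter in the set, was lower in library 1 of both arms in blastocysts too. Its ratio of library 1 to library 2 was 0.55 in KD blastocysts and 0.43 in NC blastocysts. There the median difference over the 28 was -0.05 in KD and 0.05 in NC. A link between Abca1 and the synthesis genes was not tested.

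The role groups were unequal in the split between morula libraries. All 8 mevalonate and isoprenoid genes and 10 of 11 sterol-step genes were higher in library 1 in both arms. So were 3 of 5 SREBP control genes and 1 of 4 transport genes, against 31.4% of all genes tested. More than 2-fold higher in both arms were 4 of the 8, 3 of the 11, 2 of the 5 and 0 of the 4 (1.40% of all genes). Insig1, whose transcription SREBP drives, stood at 5078 and 1586 in KD morulae, against 5174 and 1689 in NC morulae. Its paralog Insig2 stood at 93.6 and 80.5 in KD morulae, against 89.7 and 91.8 in NC morulae, with no such split between libraries. Some enzymes of the chain also differed little in morulae. The ratio of library 1 to library 2 was 1.055 in KD and 0.84 in NC for Ebp, and 1.11 and 1.27 for Dhcr7. The part of SREBP in the split was not tested. Srebf1, which encodes the SREBP isoforms of fatty acid synthesis and is also a target of LXR, stood at 2244 and 1299 in KD morulae, against 2369 and 1192 in NC morulae. Scap stood at 1358 and 1452 in KD morulae, against 1042 and 1236 in NC morulae, and the ratio of library 1 to library 2 lay between 0.860 and 0.996 for Npc1 and Npc2 in either arm.

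The same split was counted in 4 other lists of sterol and lipid genes. Of 12 fatty acid synthesis genes, 3 were more than 2-fold higher in library 1 in both arms, the desaturases Scd1, Scd2 and Fads1. With no minimum fold, 8 of the 12 were higher in library 1 in both arms, and their median difference was 0.89 in KD morulae and 0.39 in NC morulae. None past 2-fold was among the 12 genes of SREBP processing and sterol feedback, the 8 isoprenoid users or the 11 genes of sterol esterification, lysosome and carriers. The estimated depth of library 1 and library 2 was 17857241 and 16177532 reads in KD morulae and 18569125 and 17228907 reads in NC morulae, and its part in the split was not tested. The labels do not say whether a shared number marks a shared litter, day or batch.

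In blastocysts the split was not seen. No member was more than 2-fold higher in library 1 in both arms, where 0.762% of all 13651 genes tested were, and none in library 2. Library 1 was higher in both arms for 9 members (30.0% of all genes) and library 2 for another 9. Srebf2 stood at 5829 and 5961 in KD blastocysts, against 5378 and 4840.0 in NC blastocysts, and Cyp51 at 560.1 and 604 in KD blastocysts, against 686 and 504 in NC blastocysts. The median difference was -0.05 in KD blastocysts and 0.05 in NC blastocysts.

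**Figure D2:**
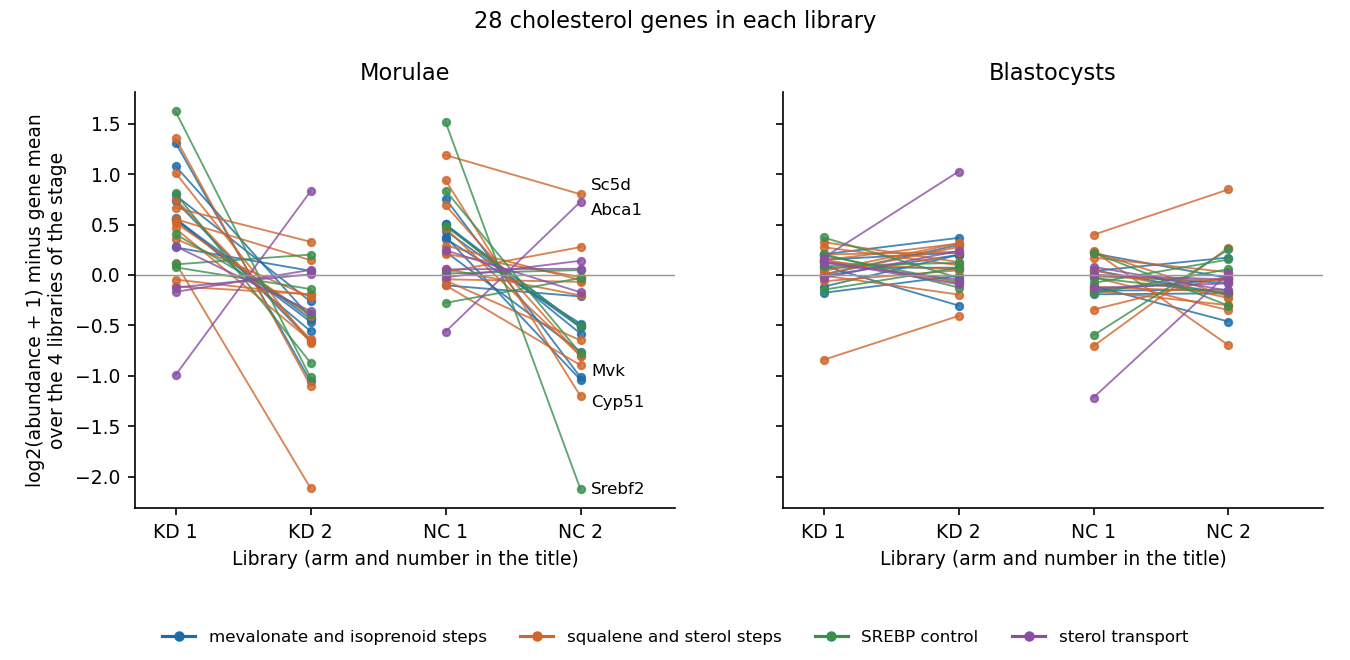
Each line is 1 of the 28 genes, drawn as log2(abundance + 1) minus its mean over the 4 libraries of the stage (y axis) in each library (x axis), with a segment joining the 2 libraries of an arm and colour for role. In morulae most lines drop toward library 2 in both KD and NC, Abca1 climbs, and in blastocysts most lines lie closer to 0.

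**Figure D3:**
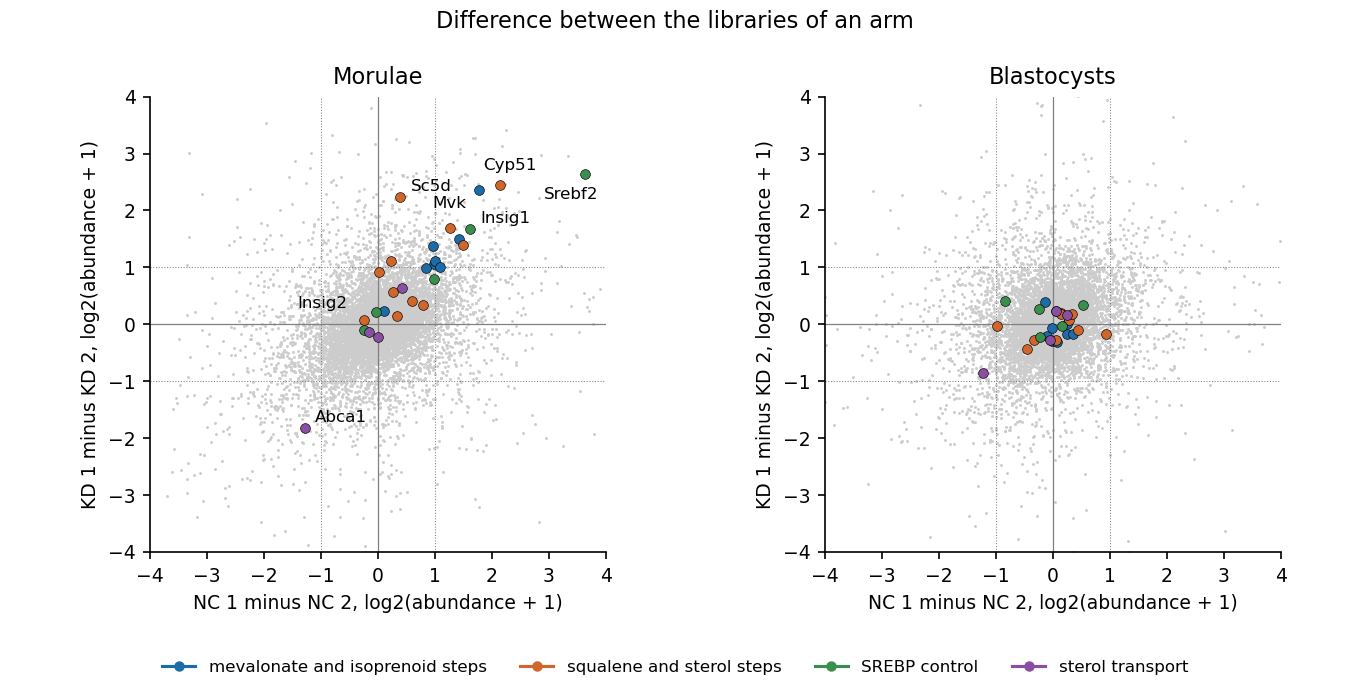
Difference between library 1 and library 2 in KD (y axis) against the same in NC (x axis), on the log2 scale, with 1 grey point per gene tested and coloured points for the 28 genes; dotted lines mark 2-fold. In morulae 9 coloured points lie above 2-fold in both arms and Abca1 below it, and in blastocysts none is beyond it in both arms on either side.

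KD was then set against NC within each stage, to ask whether the sterol genes differed after Smarca5 knockdown. None of the 28 passed an adjusted p of 0.05 in limma at either stage. Among all genes tested, 1 passed in morulae (0.00746%), which was Smarca5 itself, and 12 in blastocysts (0.0879%), Smarca5 among them. At an unadjusted p under 0.05, 1 member was higher and 1 lower in KD morulae (5.16% and 5.22% of all genes), and 5 were higher and 1 lower in KD blastocysts (8.83% and 8.73% of all genes). A fold change below is KD over NC on the log2(abundance + 1) scale. The median over the 28 was 0.10 in morulae, against -0.01 over all genes, and 0.18 in blastocysts, against 0.00 over all genes. Values above 0 were seen for 18 of 28 genes in morulae (49.2% of all genes) and for 22 of 28 in blastocysts (50.3% of all genes). These fits did not pair libraries by number, since no label says that the numbers pair them. With the number fitted as a block, 4 members passed in morulae (6.65% of all genes) and 6 in blastocysts (8.85%), as given under processing.

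In blastocysts, both KD libraries exceeded both NC libraries for 13 of 28 genes, against 24.6% of all genes tested, and both lay below for 2, Sc5d and Dhcr7, against 24.9%. In morulae the same counts were 4 higher (20.7% of all genes) and 3 lower (21.2%). Members can move together between libraries, as 22 of the 28 did in morulae. Such counts are therefore not counts of independent genes, and they were not tested as a set. Lineage markers were counted in the same way. Of 6 markers of the trophectoderm, the outer layer that forms the placenta, 4 were higher in KD blastocysts without overlap (24.6% of all genes). In KD morulae 3 of the 6 were lower without overlap (21.2% of all genes). Of 4 primitive endoderm markers, 3 were higher in KD morulae (20.7% of all genes) and 1 in KD blastocysts (24.6%) without overlap. The 3 were Gata4, Sox17 and Pdgfra, with log2 fold changes of 1.41, 4.83 and 1.14. Sox17 stood at 186 and 72.7 in KD morulae, against 16.1 and 0 in NC morulae. The 4 markers summed to 12487 and 10949 in KD morulae, against 9503 and 10478 in NC morulae. In blastocysts the sums were 11937 and 14917 in KD, against 12444 and 14418 in NC. Gata6, which overlapped at both stages, made up most of each sum. The 3 inner cell mass markers all overlapped in morulae, and 2 were lower in KD blastocysts without overlap (24.9% of all genes). They summed to 35513 and 31863 in KD morulae, against 32954 and 33787 in NC morulae. In blastocysts the sums were 27210 and 27697 in KD, against 29048 and 30605 in NC. None of these markers passed the adjusted threshold, and their part in the sterol gene values was not tested.

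**Figure D4:**
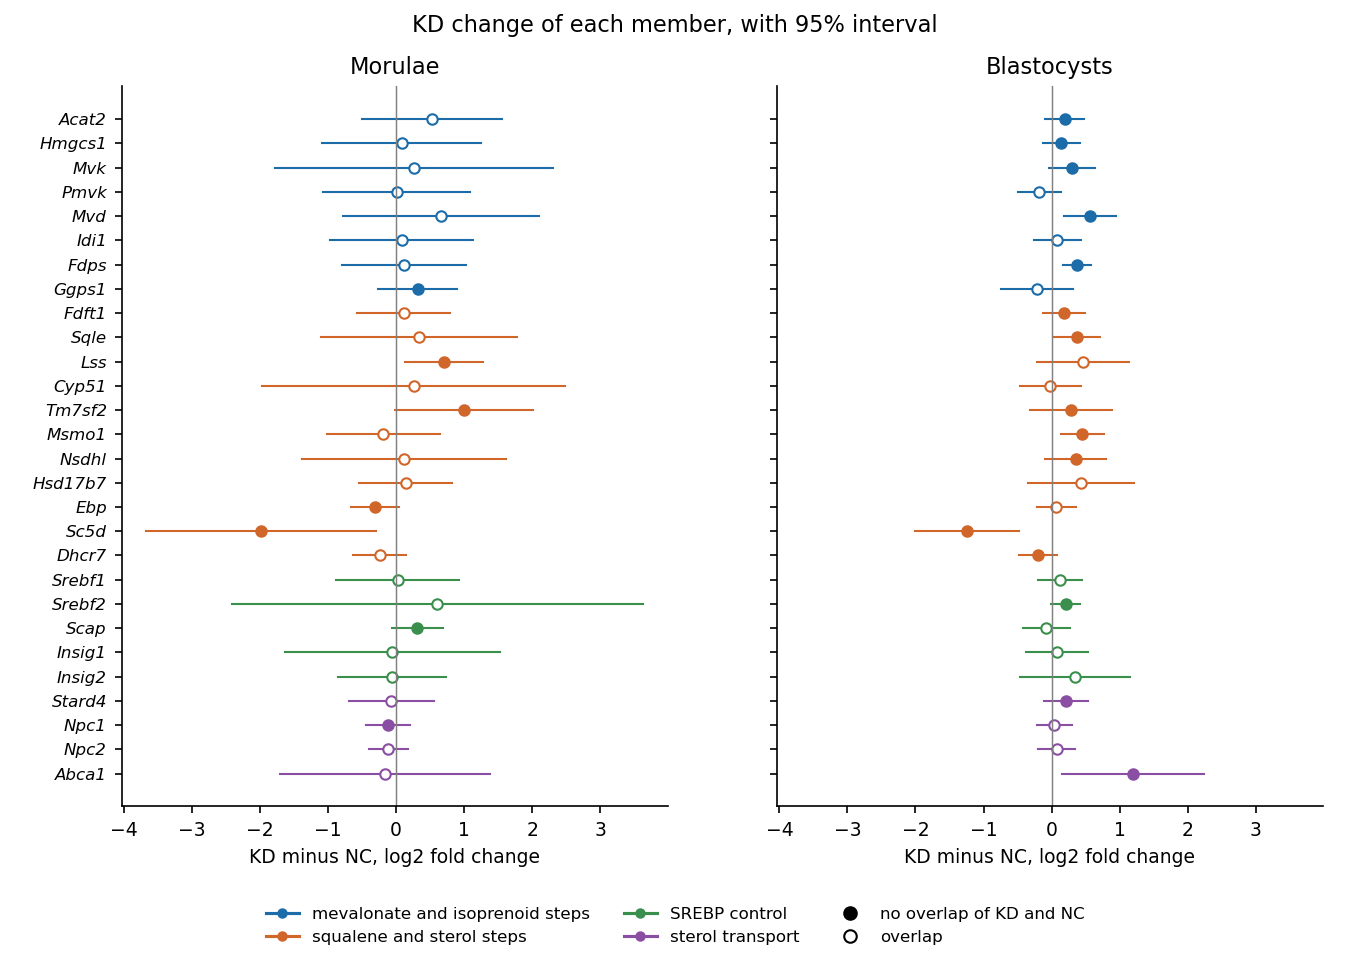
KD minus NC log2 fold change of each gene (x axis) with its 95% interval from limma, in morulae and blastocysts, coloured by role; filled points have no overlap between the 2 KD and the 2 NC libraries. Intervals are wide in morulae, where Srebf2 spans -2.41 to 3.63, and narrower in blastocysts, where Fdps, Mvd, Msmo1, Sqle and Abca1 lie right of 0 and Sc5d left of it before adjustment over all genes.

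Of the 8 mevalonate and isoprenoid genes, 5 were higher in KD blastocysts without overlap (24.6% of all genes tested), and none lower (24.9%). Fdps, which makes the farnesyl unit that leads both to squalene and to protein prenylation, stood at 4734 and 4969 in KD blastocysts, against 3732 and 3759 in NC blastocysts (log2 fold change 0.37, SE 0.09, adjusted p = 0.121 by limma). The KD libraries lay above the NC libraries with a gap wider than the spread within either arm, and this was the lowest adjusted p of the 28. Mvd, which turns mevalonate diphosphate into the isoprenoid unit, stood at 1058 and 1185 in KD blastocysts, against 851 and 667 in NC blastocysts (log2 fold change 0.57, SE 0.16, adjusted p = 0.157). Acat2, Hmgcs1 and Mvk made up the 5, with log2 fold changes of 0.19, 0.15 and 0.30. Pmvk and Ggps1 had values below 0, -0.18 and -0.21. In morulae 1 of the 8, Ggps1, was higher in both KD libraries, at 269 and 229 in KD morulae, against 207 and 192 in NC morulae (log2 fold change 0.31, SE 0.24, adjusted p = 0.705). Mvd in morulae stood at 1297 and 458 in KD morulae, against 799 and 298 in NC morulae (log2 fold change 0.66, SE 0.60, adjusted p = 0.754), where each KD library was above the NC library of its own number but the arms overlapped. Without the first KD library the value for Mvd in morulae was -0.09, and without the second it was 1.41.

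Of the 11 squalene and sterol-step genes, 5 were higher (24.6% of all genes tested) and 2 lower (24.9%) in KD blastocysts without overlap. The 5 were Fdft1, Sqle, Tm7sf2, Msmo1 and Nsdhl. Sqle, which oxidizes squalene and is a control point of the chain, stood at 2193 and 1938 in KD blastocysts, against 1783 and 1422 in NC blastocysts (log2 fold change 0.37, SE 0.14, adjusted p = 0.25). Its log2 fold change was 0.21 without the second NC library. Msmo1, which removes the methyl groups at carbon 4 of the sterol, stood at 1385 and 1208 in KD blastocysts, against 992 and 898 in NC blastocysts (log2 fold change 0.45, SE 0.13, adjusted p = 0.168). Both genes overlapped between arms in morulae, with log2 fold changes of 0.34 for Sqle and -0.19 for Msmo1.

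Sc5d, the desaturase that introduces the double bond at carbon 5 of the sterol late in the chain, was the member farthest below 0 at both stages. It stood at 111 and 22.8 in KD morulae, against 234 and 178 in NC morulae, and at 60.8 and 82.5 in KD blastocysts, against 145 and 198 in NC blastocysts. All 4 KD libraries lay below all NC libraries of their stage. The log2 fold change was -1.99 in morulae (SE 0.70, adjusted p = 0.434 by limma) and -1.25 in blastocysts (SE 0.32, adjusted p = 0.142), and NC blastocysts were 2.39-fold above KD blastocysts. Sc5d was the only one of the 28 that was lower without overlap at both stages, which 9.54% of the 12875 genes tested at both stages were. The second KD morula library lay far below the first. The log2 fold change in morulae was -0.87 without that second library and -3.10 without the first.

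Tm7sf2, which reduces the double bond at carbon 14, was the only one of the 28 that was higher without overlap at both stages (9.41% of all genes). It stood at 116 and 91.9 in KD morulae, against 68.0 and 38.8 in NC morulae (log2 fold change 0.995, SE 0.42, adjusted p = 0.491 by limma). In blastocysts it stood at 147 and 177 in KD blastocysts, against 134 and 129.8 in NC blastocysts (log2 fold change 0.28, SE 0.25, adjusted p = 0.604). Its log2 fold change was 0.60 in morulae without the second NC library and 0.15 in blastocysts without the second KD library. Lss, the cyclase that makes lanosterol, stood at 2243 and 1690.4 in KD morulae, against 1471 and 975 in NC morulae (log2 fold change 0.70, SE 0.24, adjusted p = 0.426), with both KD libraries above both NC libraries. Without the second NC library the value for Lss in morulae was 0.40. In blastocysts Lss stood at 1252 and 1404 in KD blastocysts, against 1334 and 698 in NC blastocysts (log2 fold change 0.46, SE 0.28, adjusted p = 0.446), and the first NC library lay between the KD libraries. Without the second NC library the log2 fold change of Lss in blastocysts was -0.01. Ebp, a sterol isomerase, was lower in both KD morula libraries, at 1646 and 1560.1 in KD morulae, against 1815 and 2157 in NC morulae (log2 fold change -0.30, SE 0.15, adjusted p = 0.545), and overlapped in blastocysts with a log2 fold change of 0.07. Dhcr7, which catalyses the last reduction to cholesterol in 1 branch, stood at 1843 and 1618 in KD blastocysts, against 2085 and 1886 in NC blastocysts (log2 fold change -0.20, SE 0.12, adjusted p = 0.432). In morulae Dhcr7 stood at 1880.2 and 1692 in KD morulae, against 2376 and 1875 in NC morulae, and the second NC library lay just below the first KD library. Fdft1, Nsdhl, Hsd17b7 and Cyp51 had log2 fold changes between -0.02 and 0.43 in blastocysts and between 0.11 and 0.26 in morulae.

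**Figure D5:**
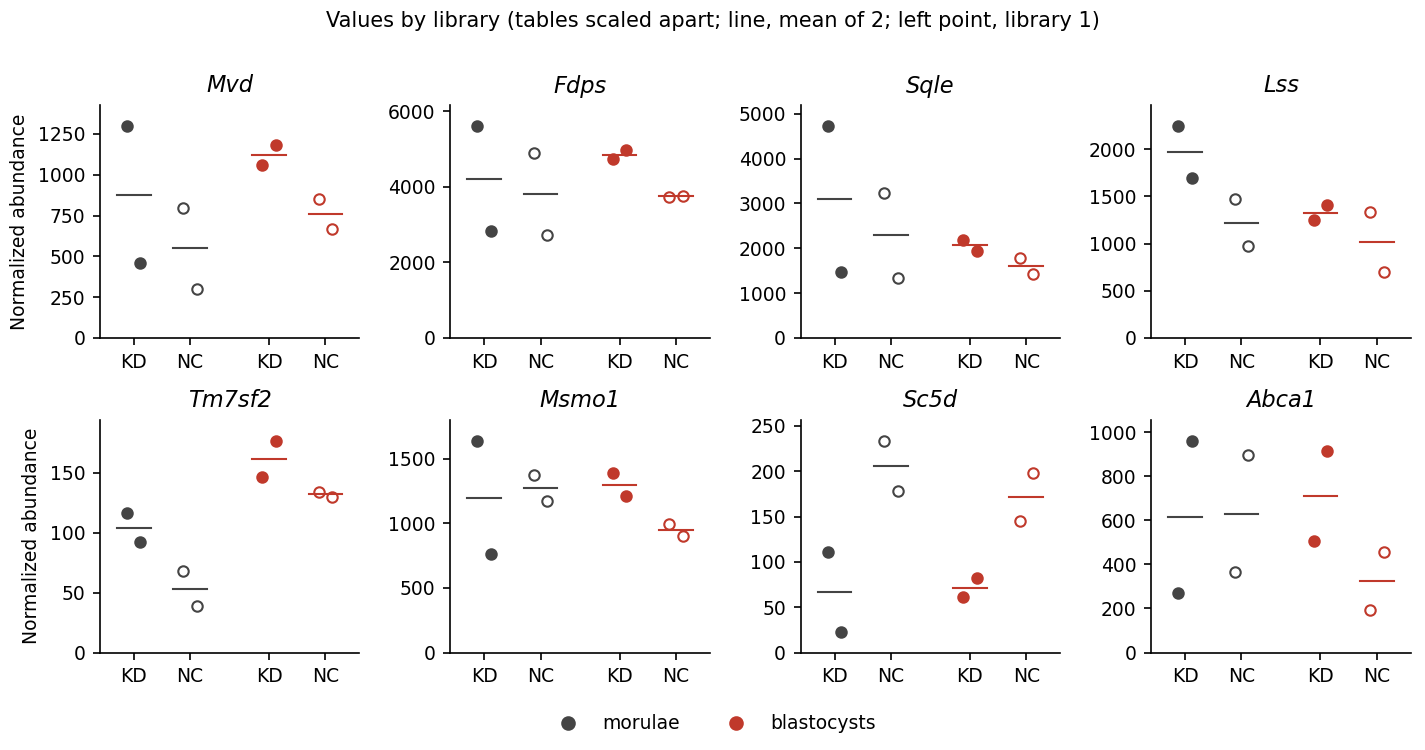
Normalized abundance (y axis, from 0) of 8 genes in every library, with KD filled and NC open, morulae in grey, blastocysts in red and a line at the mean of the 2 libraries. Sc5d is lower in all KD libraries, Tm7sf2 is higher, and for Mvd, Fdps, Sqle and Abca1 the 2 morula libraries of an arm lie farther apart than the arm means do.

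Of the 5 SREBP control genes, 1 was higher without overlap in KD blastocysts (24.6% of all genes tested), and the other 4 overlapped. It was Srebf2, at 5829 and 5961 in KD blastocysts, against 5378 and 4840.0 in NC blastocysts (log2 fold change 0.21, SE 0.09, adjusted p = 0.301). Insig2 stood at 235 and 178 in KD blastocysts, against 119.7 and 217 in NC blastocysts, and the second NC library lay between the KD libraries. In morulae Scap was the 1 gene of the 5 without overlap (log2 fold change 0.31, SE 0.16, adjusted p = 0.562), and in blastocysts its log2 fold change was -0.08 with overlapping arms. The log2 fold changes of Srebf1 and Insig1 lay between -0.06 and 0.13 over both stages.

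Of the 4 transport genes, 2 were higher without overlap in KD blastocysts (24.6% of all genes tested). Abca1 stood at 506 and 916 in KD blastocysts, against 193 and 456 in NC blastocysts (log2 fold change 1.19, SE 0.44, adjusted p = 0.235), and the second library was again the higher one in each arm. The log2 fold change of Abca1 was 0.58 without the first NC library, 0.77 without the second KD library and 1.81 without the second NC library. Stard4, which carries sterol between membranes, had a log2 fold change of 0.21. Npc1 and Npc2, which pass cholesterol out of the lysosome, had log2 fold changes of 0.04 and 0.08 in blastocysts and -0.12 and -0.12 in morulae, with Npc1 lower in both KD morula libraries.

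The KD change was compared between stages in 1 limma fit of all 8 libraries. No gene of 12875 passed an adjusted p of 0.05, and 687 had an unadjusted p under 0.05, none of them a member. The lowest unadjusted p of the 28 was 0.076 for Ebp (adjusted p = 0.921), whose log2 fold change was 0.07 in blastocysts and -0.30 in morulae.

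Genes around the chain were read from 4 further lists, of which 12, 12, 8 and 11 genes were tested at each stage, and none passed the adjusted threshold. In the list of SREBP processing and sterol feedback, Pgrmc1, a membrane protein that binds the trimming enzyme CYP51, stood at 4831 and 4378 in KD blastocysts, against 2954 and 2334 in NC blastocysts (log2 fold change 0.81, SE 0.13, adjusted p = 0.0805 by limma). In morulae Pgrmc1 stood at 4158 and 4672 in KD morulae, against 3260.2 and 2883 in NC morulae (log2 fold change 0.52, SE 0.13, adjusted p = 0.362), so KD lay above NC at both stages. Erlin1, which binds SCAP and INSIG in the endoplasmic reticulum, stood at 231 and 399 in KD blastocysts, against 679 and 487 in NC blastocysts. Of the 12 fatty acid synthesis genes, 5 were higher (24.6% of all genes tested) and 3 lower (24.9%) in KD blastocysts without overlap. Scd2, a desaturase, stood at 24326 and 20575 in KD blastocysts, against 15589 and 12032 in NC blastocysts (log2 fold change 0.71, SE 0.14, adjusted p = 0.101). Acly, which supplies acetyl-CoA to sterol and fatty acid synthesis alike, stood at 9249 and 9002 in KD blastocysts, against 7050.4 and 6063 in NC blastocysts (log2 fold change 0.48, SE 0.10, adjusted p = 0.103). Fasn, the fatty acid synthase and an SREBP target too, stood at 3013 and 2658 in KD blastocysts, against 4605 and 3616 in NC blastocysts (log2 fold change -0.53, SE 0.14, adjusted p = 0.144), so its KD libraries lay below the NC libraries. In morulae Elovl6, an elongase, was lower in both KD libraries (log2 fold change -0.42, SE 0.15, adjusted p = 0.429) and Acaca, which makes malonyl-CoA, higher (log2 fold change 0.31, SE 0.15, adjusted p = 0.545). In blastocysts both lay on the opposite side without overlap, with log2 fold changes of 0.21 for Elovl6 and -0.28 for Acaca. Osbp, which exchanges sterol for a phosphoinositide at the Golgi, Lrp1, a lipoprotein receptor, and Stard3, a late endosomal sterol carrier, were higher in both KD morula libraries, with log2 fold changes of 0.43, 0.82 and 0.45. Their adjusted p values by limma were 0.426, 0.481 and 0.518. In blastocysts the arms overlapped for all 3, with log2 fold changes of 0.07, -0.38 and 0.23. The lists of isoprenoid use and of sterol esterification, lysosome and carriers had 2 and 1 genes higher and 1 and 1 lower without overlap in KD blastocysts, out of 8 and 11 genes, against the same shares of all genes.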

How the data were processed

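Polyadenylated RNA from pools of 20 embryos was made into libraries with 12 to 15 PCR cycles and read as paired ends of 150 bases, per the labels' protocols. For each stage the authors deposited 1 table, which holds a normalized signal for every gene and library (normalized abundance in the text). Salmon 0.14.1, DESeq2 and the mm10 build were used, per the submitters' processing notes, which do not give their roles. Column sums were 17151880 to 17823304 in morulae and 18896774 to 19247880 in blastocysts. Where a gene was found in 1 library alone, 95% to 100% of its values fell on whole multiples of 1 step (tolerance 0.01), and the step gave the estimated depth. For genes in several libraries this held for only 12.4% to 30.5% of values under 20. Whole reads could thus not be recovered, which left out a count test. Errors are those between libraries.

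Symbols were matched for 98.9% of IDs. Genes with a mean of at least 10 over a table's 4 libraries were tested, 13404 in morulae and 13651 in blastocysts. The test was limma 3.58.1 in R 4.3.3 on log2(value + 1), with a mean-variance trend and Benjamini-Hochberg adjustment over all genes tested, in each table alone. Folds on this scale understate changes of low genes. An exact permutation test of 2 libraries against 2 cannot reach 0.05. The members and lists were chosen with earlier results of these data known. For the KD comparison, library values were due for a member that was called, that had no overlap and a log2 fold change of at least 0.5 in size, or that was among the 6 smallest p of a stage. Of each other list, up to 3 genes a stage with the smallest p were due. Other members given by library (Ggps1, Srebf2, Insig2 and those of the comparison between libraries) were picked after their values were seen. Motifs were counted in the 250 bases before RefSeq starts (GRCm38.p6). Alternatives were a pseudocount of 10, no filter, quantile normalization, no trend, a replicate block, 1 fit of all 8 libraries and leaving out each library. The code was tested on simulated data.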

Additional observations from a re-analysis of the deposited data

How the results depend on the processing

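No member passed the adjusted threshold at either stage with a pseudocount of 10, no filter, quantile normalization, no trend, 1 fit of all 8 libraries or any library left out. Over all genes, calls in morulae were 1, and 0 with no trend and 18 in 1 fit of all 8 libraries. In blastocysts they were 12, and 27 with no filter and 0 with no trend. With no trend not even Smarca5 was called at either stage, so that setting says little about the members. Leaving out 1 library gave 1 to 1 calls in morulae, 1 to 3 in blastocysts and 0 to 2 for the stage difference. The members' median ran from -0.36 to 0.57 in morulae and from 0.09 to 0.19 in blastocysts, the lowest, 0.0912, without the second NC library. Single values changed sign in morulae for Mvd (-0.0925 to 1.41), Fdps (-0.38 to 0.62), Sqle (-0.51 to 1.18), Msmo1 (-0.74 to 0.37) and Abca1 (-1.07 to 0.75), and in blastocysts for Lss (-0.00941 to 0.93), Ebp (-0.0438 to 0.19) and Scap (-0.19 to 0.0407). Those of Sc5d stayed below 0, at -3.10 to -0.87 in morulae and -1.47 to -1.02 in blastocysts. The cause was not tested.

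The replicate number was also fitted as a block. The titles give each arm the numbers 1 and 2, but nothing ties a number to a litter or day, and there are only 2 pairs a stage, so the libraries were not treated as paired. Across genes, the library 1 minus library 2 differences of KD and NC correlated at 0.297 in morulae and 0.146 in blastocysts. With the replicate block, limma called 892 genes in morulae and 4 members, namely Acat2, Mvd and Lss higher and Sc5d lower. In blastocysts it called 1208 genes and 6 members, namely Mvd, Fdps, Sqle, Msmo1 and Abca1 higher and Sc5d lower. For the stage difference it called 1 gene and no member, and for the mean over both stages 1543 genes and 6 members, namely Acat2, Mvd, Fdps, Sqle and Abca1 higher and Sc5d lower. The genes called were 6.65% of all tested in morulae, 8.85% in blastocysts and 12% for the mean over both stages.

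The spread between the 2 libraries of an arm limits what can be seen, most of all in morulae.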

Other observations

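The KD change averaged over both stages was fitted in 1 limma model of all 8 libraries, a fit added after the data were seen. It called 385 of 12875 genes (2.99%), 197 higher and 188 lower, and no member. Sc5d had a mean log2 fold change of -1.62 (SE 0.44, adjusted p = 0.0861) and was lower in 4 of 4 KD libraries. Lss averaged 0.58 (adjusted p = 0.175) and Tm7sf2 0.64 (adjusted p = 0.18).

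Foxl2, a granulosa transcription factor on the list of cumulus markers, stood at 109 and 77.1 in KD morulae, against 38.9 and 28.9 in NC morulae. In blastocysts it stood at 63.9 and 42.6 in KD blastocysts, against 16.3 and 25.1 in NC blastocysts. The adjusted p of Foxl2 by limma was 0.402 in morulae and 0.24 in blastocysts. Of the 3 markers of that list that were tested, Amhr2 lay the other way in morulae. It stood at 203.5 and 242.6 in KD morulae, against 278.5 and 324.8 in NC morulae, and overlapped in blastocysts (log2 fold change -0.43). Inhbb overlapped at both stages. Stard5, a lipid carrier of the START family, stood at 92.1 and 201 in KD blastocysts, against 64.0 and 42.3 in NC blastocysts. Its log2 fold change there was 1.37 (SE 0.46, adjusted p = 0.204 by limma). In morulae Stard5 stood at 69.1 and 42.0 in KD morulae, against 34.7 and 18.3 in NC morulae. The log2 fold change in morulae was 1.06 (SE 0.55, adjusted p = 0.569 by limma).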
